A study of Mus musculus with 20 samples.

Results

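The phagocyte NADPH oxidase genes Cybb, Cyba, Ncf1, Ncf4 and Rac2 and the kidney oxidase gene Nox4 were followed in 20 mouse kidneys, as 6 genes chosen by name out of 26608 in one count table and 30809 in another. All 6 were present in both tables and all 6 passed the filter on low counts in both. All kidneys came from aged mice that had received a bone marrow transplant. The first table held 6 Control kidneys (animals 3, 11, 12, 13, 16 and 17) and 6 LOY kidneys (animals 5, 8, 9, 10, 14 and 18). LOY stands for hematopoietic loss of the Y chromosome, and the transplant made the blood system of each mouse either Control or LOY. The second table held kidneys of LOY mice only, 4 with a control compound (animals 6, 8, 9 and 10) and 4 with ABT263 (animals 15, 16, 17 and 18). ABT263, also called ABT-263 or navitoclax, blocks survival proteins of the BCL2 family and is used as a senolytic, a compound that kills senescent cells. Strain, age, the way the Y chromosome was removed, and the dose and timing of ABT263 are not stated in the labels. No Control kidney with ABT263 was analysed here, and an animal number that recurs in both tables was not taken to be the same mouse.

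In phagocytes, superoxide is made by a complex that assembles on demand. Cybb encodes gp91phox (NOX2), the membrane subunit that passes electrons from NADPH to oxygen, and Cyba encodes its membrane partner p22phox. Ncf1 (p47phox) organises the complex at the membrane, Ncf4 (p40phox) binds phagosomal lipid, and the GTPase Rac2 joins the active enzyme. Nox4 is abundant in kidney tubules, also pairs with p22phox, needs none of the cytosolic subunits and releases mainly hydrogen peroxide. Cyba is therefore the subunit shared by both enzymes.

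Libraries held 13332563 to 19386408 gene counts in the first table and 14587809 to 20791633 in the second. The least covered gene was Ncf4, with 11 to 138 counts per kidney in the first table, and Cyba had 5180 to 10973. Control animal 3 stood apart from the other 5 Control kidneys for several genes, and values without it are given where it moved them most. LOY animal 8 also stood apart from the other LOY kidneys, and values without it are given for Cyba and Rac2. The RNA was from whole kidney, where fewer cells of a type and less RNA per cell cannot be told apart. The transplant replaces blood-forming cells and not the tubules, so RNA of Y-linked genes in whole kidney is no check of the label. It spanned 57.3 to 72.3 CPM in Control and 37.9 to 67.1 in LOY kidneys for Ddx3y (CPM, counts scaled to a common library total with TMM factors), and 0 of 4 Y-linked genes passed the test (edgeR adjusted p 0.232 to 0.987).

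RefSeq promoter windows (GRCm38.p6, 250 bases before to 50 bases after the start site) were matched for 4 of the 6 genes: Cybb, Cyba, Ncf1 and Nox4. Those of Cybb, Ncf1 and Nox4 are shown because the first pair was higher in LOY kidneys and Nox4 had the opposite sign. Capitals mark the core GAGGAA, or its reverse complement, of the site bound by PU.1, the myeloid transcription factor known to drive Cybb. The windows are chrX:9469275-9469574 on the minus strand for Cybb, chr5:134229576-134229875 on the minus strand for Ncf1, and chr7:87246399-87246698 on the plus strand for Nox4, each read 5′ to 3′ along the gene.
Cybb: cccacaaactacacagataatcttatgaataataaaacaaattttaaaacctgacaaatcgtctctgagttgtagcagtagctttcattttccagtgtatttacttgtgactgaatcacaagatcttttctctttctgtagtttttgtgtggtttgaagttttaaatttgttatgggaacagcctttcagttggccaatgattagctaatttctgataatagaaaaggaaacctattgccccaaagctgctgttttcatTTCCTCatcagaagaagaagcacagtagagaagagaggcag
Ncf1: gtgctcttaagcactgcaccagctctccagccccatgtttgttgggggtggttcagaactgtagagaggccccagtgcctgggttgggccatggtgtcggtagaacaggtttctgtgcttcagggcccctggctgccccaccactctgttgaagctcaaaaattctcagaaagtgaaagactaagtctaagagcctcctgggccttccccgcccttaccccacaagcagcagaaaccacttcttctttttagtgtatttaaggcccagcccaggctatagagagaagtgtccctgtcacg
Nox4: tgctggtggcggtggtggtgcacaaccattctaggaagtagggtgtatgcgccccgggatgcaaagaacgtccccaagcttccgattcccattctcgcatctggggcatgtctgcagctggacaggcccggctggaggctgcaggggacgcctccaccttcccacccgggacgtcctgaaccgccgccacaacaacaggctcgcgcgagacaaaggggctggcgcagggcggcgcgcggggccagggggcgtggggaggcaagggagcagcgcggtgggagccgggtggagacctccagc

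Searched on both strands, GAGGAA had 1 match in the Cybb window, on the minus strand and 9 bases past the start site, and 0 matches in the windows of Cyba, Ncf1 and Nox4. It occurred in 28.3% of all 32851 windows of this length. The gamma activated site pattern TTCNNNGAA, which reads the same on either strand, was present in the windows of Ncf1 and Nox4 and in 8.3% of all windows. The SP1 box GGGCGG had 2 matches in Cyba, 1 in Ncf1 and 1 in Nox4 and was in 35.7% of all windows, and TATAAA was in 0 of the 4 and in 13.6% of all. None of these motifs overlapped another in the 4 windows. Base composition set Cybb apart, with 35.3% G and C against 60.7% for Cyba, 54% for Ncf1 and 68.3% for Nox4. These matches describe the letters of the windows only.

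In GENCODE M21 (GRCm38) Cybb lies at chrX:9435252-9487771 on the minus strand, and the RefSeq start site used above falls inside this longer model. Cyba (chr8:122424776-122432930, minus strand) lies under the opposite-strand model Gm20388. Ncf1 (chr5:134220053-134229625, minus strand) overlaps Gtf2ird2 on the opposite strand. Ncf4 (chr15:78244801-78262580, plus strand) and Rac2 (chr15:78559167-78572783, minus strand) are on the same chromosome, and Nox4 is at chr7:87246096-87398710 on the plus strand. The labels do not state the strand setting of the counting, so reads of Cyba or Ncf1 and of their opposite-strand partners cannot be told apart. Gtf2ird2 itself differed by 0.09 ± 0.15 log2 units between LOY and Control kidneys (edgeR adjusted p = 0.724).

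Levels were compared between genes only per kilobase of exon. In Control kidneys Cyba had the highest level, 421 ± 68.6 CPM per kilobase (SD, n = 6), followed by Nox4 at 41.4 ± 10.6. The phagocyte-specific genes were far lower, with Rac2 at 2.79 ± 0.815 CPM per kilobase, Cybb at 1.89 ± 0.158, Ncf1 at 1.52 ± 0.493 and Ncf4 at 1.13 ± 0.759. The ranges of neighbours in this order overlapped among Rac2, Cybb, Ncf1 and Ncf4, while Nox4 and Cyba stood clear of them and of each other. In LOY kidneys Cyba was at 497 ± 170, Nox4 at 25.7 ± 7.23, Rac2 at 6.34 ± 1.96, Ncf4 at 3.22 ± 0.838, Cybb at 2.97 ± 0.488 and Ncf1 at 2.92 ± 0.426 CPM per kilobase (SD, n = 6). The RNA of the shared partner Cyba thus exceeded that of either catalytic subunit in both groups. Per kilobase, Nox4 was 22.1 ± 5.93 times Cybb in Control kidneys (range 10.9 to 26.5) and 8.77 ± 2.56 times Cybb in LOY kidneys (4.83 to 11.6). These ratios overlapped only through Control animal 3, which had the lowest Control ratio.

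The first comparison asked how a LOY blood system changed the kidney. Of the 5 phagocyte oxidase subunits 4 rose in LOY kidneys (Cybb, Ncf1, Ncf4 and Rac2), between 1.58-fold and 2.84-fold, and Cyba did not pass the test. Nox4 was 0.62 times its Control level but did not pass either. Of all 14978 genes tested, 1.18% passed in either direction and 1.11% passed as higher. The median log2 fold change of all genes was 0.02. The members' levels in each kidney are plotted by group.

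**Figure D1:**
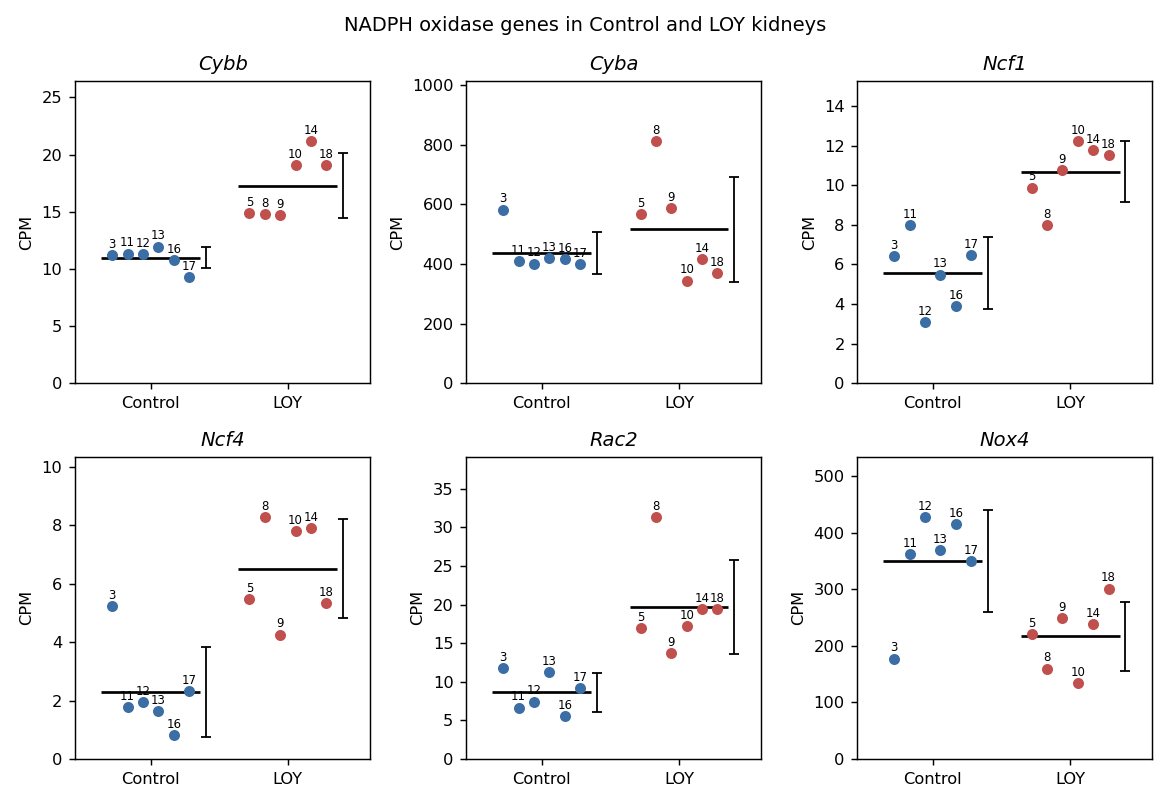
CPM of the 6 oxidase genes in each of the 6 Control (blue) and 6 LOY (red) kidneys, with animal numbers; lines are means and bars are SD (n = 6), and each panel has its own axis from 0. The LOY kidneys lie above every Control kidney for Cybb, Ncf1 and Rac2, and for Nox4 only Control animal 3 lies within the LOY range.

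Cybb, the catalytic subunit, ranged from 9.27 to 12.0 CPM in Control kidneys (median 11.3) and from 14.7 to 21.2 CPM in LOY kidneys (median 17.0). Its groups did not overlap, and its coefficient of variation among Control kidneys was 8.35%, or 9.30% without Control animal 3. Non-overlapping groups with LOY higher were found for 1.56% of all genes tested. The mean rose from 11.0 ± 0.917 to 17.3 ± 2.84 CPM (SD, n = 6 each), a log2 fold change of 0.66 ± 0.13 (SE, edgeR adjusted p = 0.0343). LOY animals 10, 14 and 18 held the highest values, between 19.1 and 21.2 CPM.

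Cyba, the shared membrane partner, ranged from 398 to 582 CPM in Control kidneys (median 412) and from 345 to 811 CPM in LOY kidneys (median 492). The groups overlapped widely: 3 LOY kidneys were at 345 to 416 CPM and 2 were above every Control kidney. Its log2 fold change was 0.24 ± 0.20 (SE, edgeR adjusted p = 0.455). It was 0.06 without LOY animal 8 and 0.32 without LOY animal 10 (edgeR adjusted p 0.848 and 0.343). LOY animal 8 had the highest value and LOY animal 10 the lowest of all 12 kidneys, although both were above every Control kidney for Cybb, Ncf1, Ncf4 and Rac2.

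Ncf1, the organiser, ranged from 3.10 to 7.98 CPM in Control kidneys (median 5.96) and from 7.98 to 12.2 CPM in LOY kidneys (median 11.2). The groups were separated by a narrow margin, 7.976 CPM in Control animal 11 against 7.982 CPM in LOY animal 8. The mean rose from 5.56 ± 1.81 to 10.7 ± 1.56 CPM (SD, n = 6 each), with a log2 fold change of 0.94 ± 0.21 (SE, edgeR adjusted p = 0.0467).

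Ncf4, the lipid-binding subunit, ranged from 0.81 to 5.24 CPM in Control kidneys (median 1.86) and from 4.25 to 8.28 CPM in LOY kidneys (median 6.64). Only Control animal 3 overlapped the LOY group, and 5 of 6 LOY kidneys were above it. Ncf4 had the largest fold change of the 6 genes and the fewest counts. The mean rose from 2.29 ± 1.53 to 6.51 ± 1.69 CPM (SD, n = 6 each), with a log2 fold change of 1.51 ± 0.35 (SE, edgeR adjusted p = 0.0495). Without Control animal 3 the log2 fold change was 1.93 (edgeR adjusted p = 0.00501).

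Rac2, the GTPase, ranged from 5.57 to 11.8 CPM in Control kidneys (median 8.33) and from 13.7 to 31.3 CPM in LOY kidneys (median 18.3). The groups did not overlap, and LOY animal 8 was well above the other 5 LOY kidneys. The mean rose from 8.65 ± 2.53 to 19.7 ± 6.10 CPM (SD, n = 6 each), with a log2 fold change of 1.18 ± 0.22 (SE, edgeR adjusted p = 0.0293). Without LOY animal 8 the log2 fold change was 0.9994 (edgeR adjusted p = 0.0227).

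Nox4, the tubular oxidase, ranged from 178 to 428 CPM in Control kidneys (median 366) and from 134 to 301 CPM in LOY kidneys (median 230). Control animal 3, at 178 CPM, was the only Control kidney within the LOY range, and the other 5 were at 350 to 428 CPM. The means were 351 ± 90.1 CPM in Control and 217 ± 61.3 CPM in LOY kidneys (SD, n = 6 each). The log2 fold change was -0.69 ± 0.22 (SE, edgeR adjusted p = 0.121). It passed without Control animal 3 (-0.83, edgeR adjusted p = 0.0272). It also passed in DESeq2 (-0.70, adjusted p = 0.0342) and in voom with sample quality weights (-0.66, adjusted p = 0.0227). In these fits 4.01%, 5.78% and 7.19% of all genes passed, against 1.18% as reported. Nox4 passed in 4 of 24 alternatives, the other being the animals numbered above 10, where 2.89% of all genes passed. Control animal 3 was the only Control kidney numbered 10 or below. LOY animals 5, 8, 9 and 10 were at 221, 160, 249 and 134 CPM. With animal number above 10 as a term in the fit, the log2 fold change of Nox4 was -0.30 (edgeR adjusted p = 0.766).

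With 1 kidney left out at a time the log2 fold changes were 0.59 to 0.70 for Cybb, 0.81 to 1.07 for Ncf1, 1.33 to 1.93 for Ncf4 and 0.9994 to 1.29 for Rac2, but calls were lost. With any 1 of Control animals 11, 12, 13, 16 or 17 or LOY animal 10 left out, 0 of the 5 subunits passed in edgeR, and 0 to 9 of all genes did (2300 to 2870 at an unadjusted p under 0.05). Without LOY animal 5, 9 or 14 the subunits that passed were 2, 2 and 1, with 1.24%, 0.635% and 0.768% of all genes. Without LOY animal 8 or 18, 3 subunits passed, with 1.48% and 1.96% of all genes. Without Control animal 3 the 4 subunits passed, with 607 genes in all (4.01%). Animal numbers were uneven between the groups, since 5 of 6 Control but 2 of 6 LOY animals had numbers above 10; the labels do not say what the numbers stand for. Among animals numbered above 10, which leave out Control animal 3, the 4 subunits passed, with 451 genes in all (2.89%). Their log2 fold changes were 0.88 for Cybb, 1.10 for Ncf1, 1.94 for Ncf4 and 1.27 for Rac2 (edgeR adjusted p 0.00354 to 0.0433). Nox4 passed there too (-0.51, edgeR adjusted p = 0.0194), while Cyba was at -0.06. With the number above or below this point as a term in the fit, 0 of the 6 genes and 0 genes in all passed (1194 at an unadjusted p under 0.05). The log2 fold changes then were 0.75 for Cybb, 0.95 for Ncf1, 1.31 for Ncf4, 1.08 for Rac2, -0.04 for Cyba and -0.30 for Nox4. The lower numbers include 1 Control kidney, animal 3, so no test within them was made.

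Each kidney was also summarised by the mean log2 CPM deviation of the 5 phagocyte subunits minus that of Nox4. This difference lay between -1.55 and -0.80 in 5 Control kidneys, was 0.64 in Control animal 3, and lay between 0.21 and 1.45 in the 6 LOY kidneys. The group means differed by 1.61 log2 units. Control animal 3 therefore fell within the LOY range of this balance, with a low Nox4 and a high Cyba and Ncf4 among the Control kidneys. LOY animals 8 and 10 had the highest values, with the lowest Nox4 of the LOY kidneys.

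**Figure D2:**
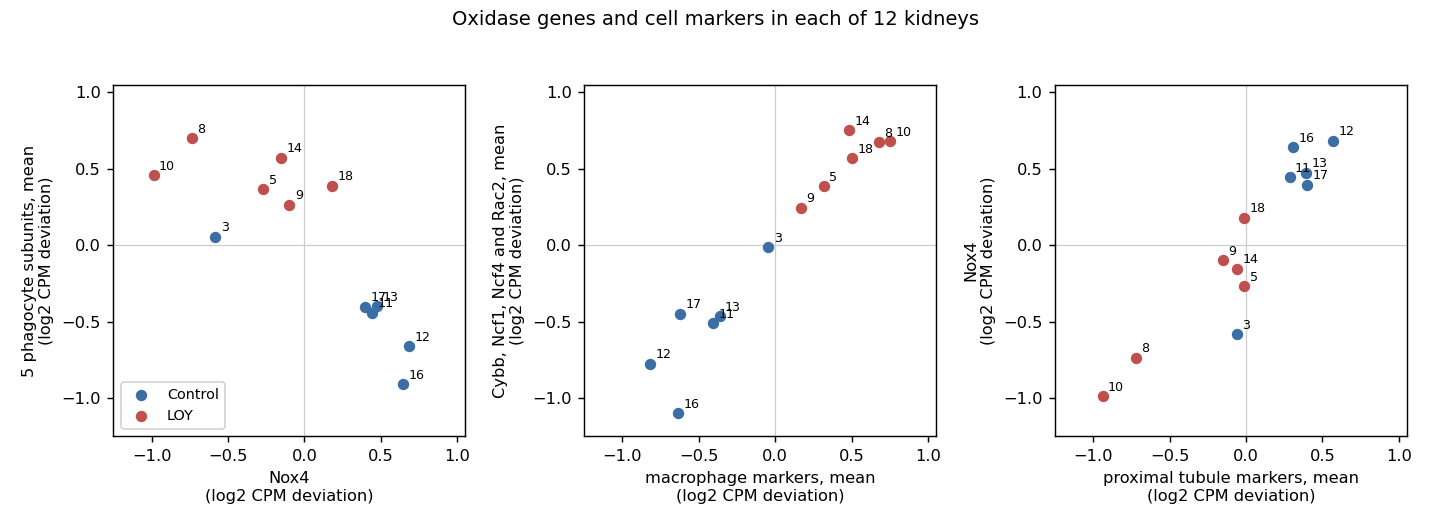
Log2 CPM deviation from the mean over 12 kidneys (prior count 2) for the oxidase genes and cell type markers; each point is 1 kidney, blue for Control and red for LOY, with its animal number. The 4 subunits Cybb, Ncf1, Ncf4 and Rac2 lie close to the macrophage marker mean and Nox4 close to the proximal tubule marker mean in most kidneys, and Control animal 3 lies near the LOY kidneys in the left panel.

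Markers of the cells known to hold these enzymes were measured beside them. Among 15 macrophage and monocyte markers, all tested, 8 rose in LOY kidneys, with a median log2 fold change of 1.02. Of the 7 that did not pass, Csf1r was at 0.05 (edgeR adjusted p = 0.817). Their summed level was 252 to 411 CPM in Control and 472 to 633 CPM in LOY kidneys. The mean deviation of Cybb, Ncf1, Ncf4 and Rac2 stayed between -0.46 and 0.27 log2 units of the mean deviation of these markers in the 12 kidneys. The part of macrophage number in the change of the subunits was not tested.

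Other blood cells that can hold the complex or Rac2 were also measured. Neutrophil markers were scarce, with 3 of 11 tested, 0 called and a summed level of 3.88 to 9.90 CPM in Control and 5.72 to 16.7 CPM in LOY kidneys. The neutrophil surface gene Ly6g had 1 count in the 6 Control and 1 count in the 6 LOY kidneys together. Of 7 tested T cell markers 3 rose (median log2 fold change 1.41), from a summed 5.81 to 11.5 CPM to 15.7 to 28.8 CPM, and of 5 tested B cell markers 0 passed (median 0.83). T cells make Rac2 and B cells make the phagocyte subunits at low levels, and their part in these values was not tested.

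For Nox4 the matching cells are the proximal tubules. None of 12 proximal tubule markers passed the test, 11 had a negative log2 fold change and the median was -0.52, beside -0.69 for Nox4. Their summed level was 20335 to 27847 CPM in Control and 10546 to 22319 CPM in LOY kidneys. The deviation of Nox4 minus that of these markers lay between -0.52, in Control animal 3, and 0.33. Markers of the thick ascending limb and distal tubule had the same sign, with 6 of 6 negative, a median of -0.45 and 0 called. Of 8 markers of injured tubules 7 rose, with a median log2 fold change of 1.45. Whether these shifts account for the Nox4 values was not tested.

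Of 13 further NADPH oxidase genes listed, 5 were tested and 0 passed, with a median log2 fold change of 0.05. Rac1, the widely made relative of Rac2, was at 242 to 259 CPM in Control and 242 to 292 CPM in LOY kidneys, a log2 fold change of 0.05 ± 0.09 (edgeR adjusted p = 0.762). Noxo1, an organiser for other NOX enzymes, had a log2 fold change of 0.70 ± 0.20 (edgeR adjusted p = 0.1005), and Poldip2, known to bind p22phox and raise Nox4 activity, had -0.26 ± 0.12 (adjusted p = 0.219). Nox1, Nox3, Noxa1, Duox1, Duox2, Duoxa1 and Duoxa2 were below the filter. Nox1 had 6 counts in all Control and 4 in all LOY kidneys, and Nox3 had 3 and 4.

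**Figure D3:**
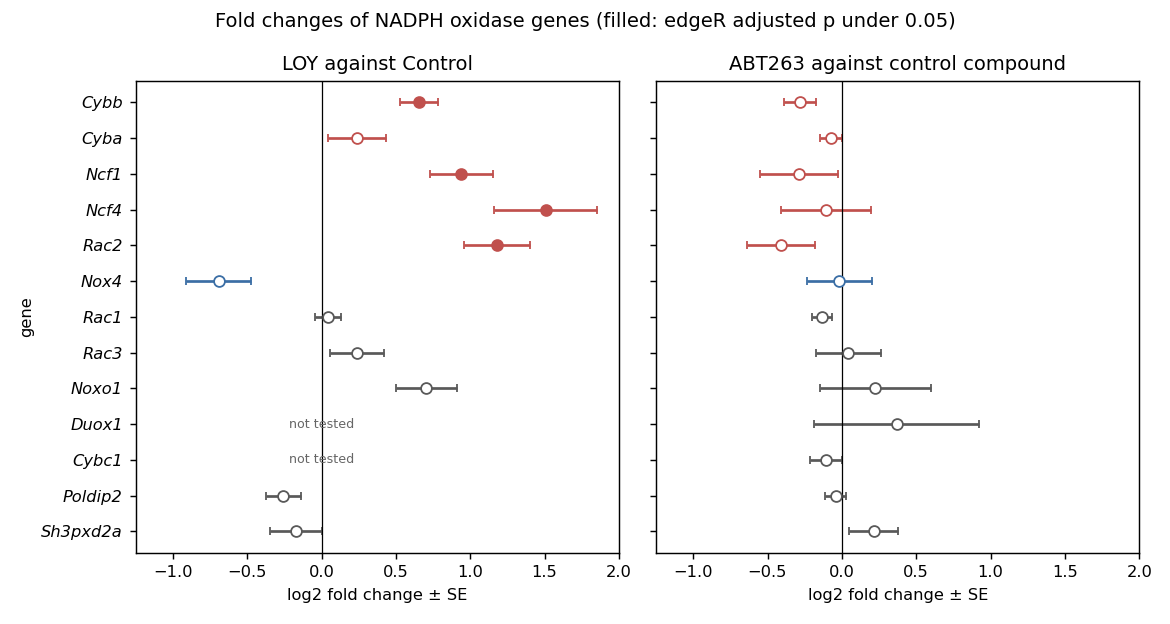
Log2 fold change ± SE of the 6 oxidase genes (red for phagocyte subunits, blue for Nox4) and of other NADPH oxidase genes (grey) in LOY against Control kidneys and in ABT263 against control compound; filled points have an edgeR adjusted p under 0.05. In the left panel Cybb, Ncf1, Ncf4 and Rac2 are filled and Nox4 lies on the other side of 0; in the right panel none is filled.

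Upstream of the phagocyte complex, 18 genes that activate it were listed and all 18 were tested. All 18 had a positive log2 fold change (median 0.52, against 52.3% positive among all genes), and 1 passed. That gene was Itgb2, the beta chain of the leukocyte integrins, which rose from 9.39 ± 1.56 to 16.8 ± 3.82 CPM (SD, n = 6 each), a log2 fold change of 0.84 ± 0.17 (SE, edgeR adjusted p = 0.0343). Chosen after their values were seen, the Rac exchange factor Dock2 was at 1.04 ± 0.24 (edgeR adjusted p = 0.0506) and the kinase Syk at 0.96 ± 0.22 (adjusted p = 0.0508). These 2 missed the threshold narrowly, and their groups did not overlap.

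Among 7 transcription factors of myeloid cells, 6 were tested, all 6 had a positive log2 fold change (median 0.33) and 1 passed. This was Spi1, which encodes PU.1 and is listed under its older symbol Sfpi1 in the first table. It was at 5.73 to 10.1 CPM in Control and 11.2 to 31.2 CPM in LOY kidneys, and the groups did not overlap. Its log2 fold change was 1.203 ± 0.23 (SE, edgeR adjusted p = 0.0302). Spi1 is itself a myeloid gene, and the level of its RNA says nothing of binding at the Cybb window.

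Enzymes that remove superoxide and peroxide were all tested, 13 of 13, and 0 passed. Their median log2 fold change was 0.14 and 11 were positive, against 52.3% positive among all genes. The lowest p belonged to the redox protein Txn1 (0.50 ± 0.20, edgeR adjusted p = 0.178) and the peroxiredoxin Prdx2 (0.31 ± 0.14, adjusted p = 0.210).

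Of 8 other enzymes that make reactive oxygen 7 were tested and 0 passed (median log2 fold change 0.03). The peroxisomal oxidase Hao2 was at -0.34 ± 0.22 (edgeR adjusted p = 0.353), and the monoamine oxidase Maob was at -0.25 ± 0.20 (adjusted p = 0.456). Mpo, the neutrophil peroxidase, had 1 count in the Control and 1 in the LOY kidneys.

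All 7 listed genes of the renin-angiotensin, TGF-beta and related inputs known for Nox4 were tested, and 0 passed (median -0.06). Tgfb1, a ligand known to raise Nox4, had 0.54 ± 0.14 (edgeR adjusted p = 0.0673), with 27.3 to 39.7 CPM in Control and 35.1 to 60.8 CPM in LOY kidneys. The cell cycle factor E2f1 had 0.48 ± 0.20 (adjusted p = 0.187). Of the 7 genes 3 had a positive log2 fold change and 4 a negative one, the sign of Nox4. The part of these inputs in the Nox4 values was not tested.

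Genes whose profiles over the 12 kidneys were most like those of Cybb or Nox4 were found by the root mean square difference of log2 CPM deviations, among the 14395 tested genes that averaged 1 CPM or more. For Cybb these were Nckap1l (0.17), Elf4 (0.17), Fyb (0.18) and Samhd1 (0.18), against a median of 0.47 over all genes. For Nox4 they were Acsm5 (0.17), Wdr31 (0.19), Plekhm2 (0.19) and Syde2 (0.20), against a median of 0.61. Within the set, Cybb lay nearest to Ncf1 (0.40), and Nox4 lay farthest from Ncf4 (1.49). A gene with no change over the kidneys would lie at 0.36 from Cybb, the spread of Cybb itself, so Ncf1 was no closer than that. Ncf4 itself had a spread of 0.997, which enters its distance to Nox4. These distances describe the 12 libraries and carry no test.

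The second comparison asked whether the senolytic ABT263 changed LOY kidneys. None of the 5 phagocyte subunits passed, nor did Nox4, and of all 16956 genes tested 0% passed in edgeR (1002 at an unadjusted p under 0.05, 44 genes in DESeq2 and 7 in voom). The 5 subunits had log2 fold changes between -0.41 and -0.08, Nox4 was at -0.02, and the median of all genes was 0.00. All control-compound animals had numbers of 10 or below and all ABT263 animals had higher ones, so number and compound cannot be told apart. The tables were processed separately, and levels are not compared between them.

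**Figure D4:**
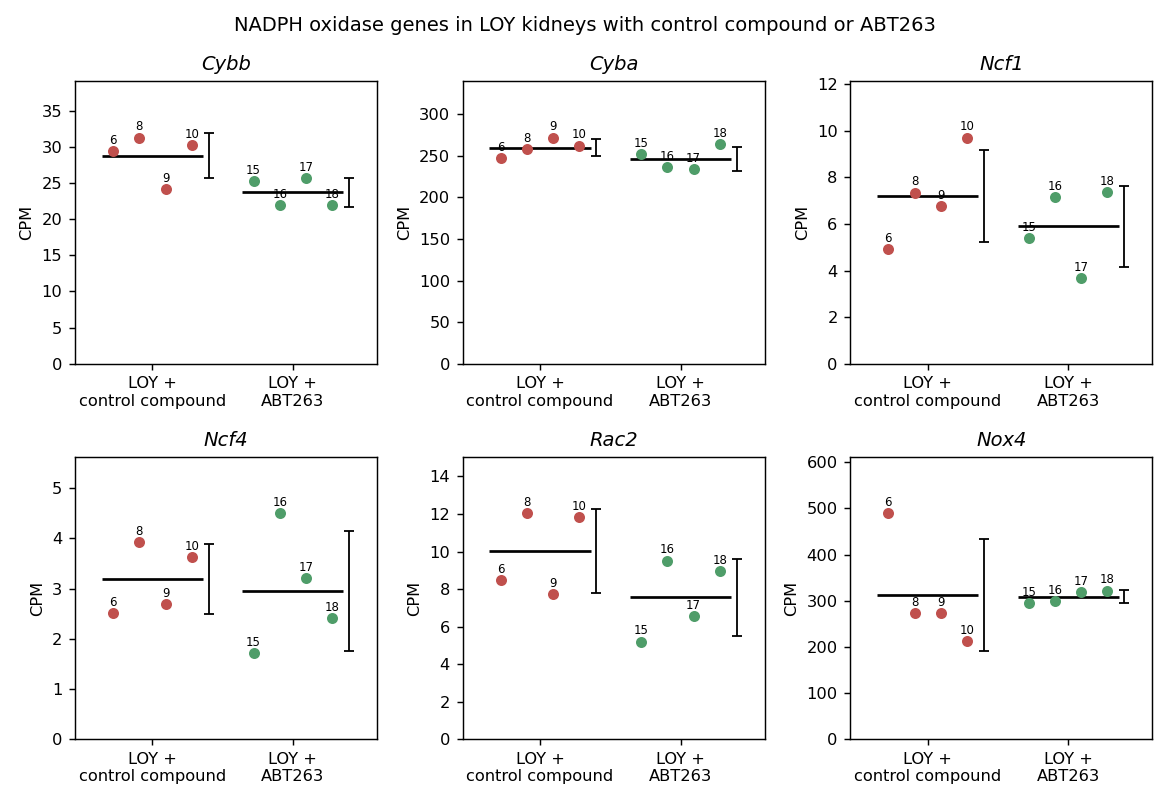
CPM of the 6 oxidase genes in each of 4 LOY kidneys with the control compound (red) and 4 with ABT263 (green), with animal numbers; lines are means and bars are SD (n = 4), and each panel has its own axis from 0. The groups overlap for all 6 genes, and control-compound animal 6 has the highest Nox4, at 489 CPM.

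Cybb was at 29.4, 31.3, 24.2 and 30.2 CPM in control-compound animals 6, 8, 9 and 10 and at 25.3, 21.9, 25.6 and 22.0 CPM in ABT263 animals 15, 16, 17 and 18. Control-compound animal 9 was below 2 of the ABT263 kidneys, so the groups overlapped. The means were 28.8 ± 3.14 and 23.7 ± 2.03 CPM (SD, n = 4 each), a log2 fold change of -0.28 ± 0.11 (SE, edgeR adjusted p = 0.803). Groups with ABT263 wholly lower were found for 2.25% of all genes tested, and 0 of the 5 subunits was among them.

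Cyba was at 247, 258, 272 and 262 CPM with the control compound and at 252, 236, 233 and 264 CPM with ABT263, in the same order of animals. The groups overlapped, and the log2 fold change was -0.08 ± 0.08 (SE, edgeR adjusted p = 0.898). The coefficients of variation of Cyba were 3.97% and 5.82% here. In the first table they were 34.2% in LOY kidneys and 16.3% in Control kidneys, or 2.16% in Control kidneys without animal 3.

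Ncf1 was at 4.92, 7.34, 6.77 and 9.71 CPM with the control compound and at 5.40, 7.15, 3.67 and 7.37 CPM with ABT263. Ncf4 was at 2.52, 3.93, 2.70 and 3.63 CPM with the control compound and at 1.71, 4.50, 3.20 and 2.41 CPM with ABT263. Rac2 was at 8.49, 12.0, 7.73 and 11.8 CPM with the control compound and at 5.20, 9.52, 6.56 and 8.96 CPM with ABT263. For these 3 genes the groups overlapped, and the highest ABT263 kidney exceeded at least 2 control-compound kidneys. Their log2 fold changes were -0.29 ± 0.26, -0.11 ± 0.30 and -0.41 ± 0.23 (SE, edgeR adjusted p 0.887, 0.971 and 0.846). The sign for Ncf4 turned without control-compound animal 8 (0.01) and without ABT263 animal 15 (0.08). Without ABT263 animal 16 the log2 fold changes of Ncf1, Ncf4 and Rac2 were -0.40, -0.38 and -0.54, and none passed (edgeR adjusted p 0.573 to 0.761).

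Nox4 was at 489, 274, 273 and 213 CPM with the control compound and at 295, 299, 319 and 322 CPM with ABT263. The ABT263 kidneys had a coefficient of variation of 4.47%, against 38.8% with the control compound, and all lay inside the control-compound range. Without control-compound animal 6, the other 3 control-compound kidneys spanned 213 to 274 CPM, with a coefficient of variation of 13.8%. Animal 6 was set aside here after the values were seen. The means were 312 ± 121 and 309 ± 13.8 CPM (SD, n = 4 each), a log2 fold change of -0.02 ± 0.22 (SE, edgeR adjusted p = 0.998). Without control-compound animal 6 it was 0.28 ± 0.10 (edgeR adjusted p = 0.320), and the sign also turned without ABT263 animal 15 (0.01) or 16 (0.00). Per kilobase, Nox4 was 7.50 ± 2.87 times Cybb with the control compound and 8.98 ± 0.903 times with ABT263 (SD, n = 4 each), with overlapping ranges.

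In the same kidneys macrophage and monocyte markers had a median log2 fold change of -0.31, with 11 of 15 negative and 0 called, and a summed 430 to 722 CPM with the control compound and 400 to 467 CPM with ABT263. All 9 T cell markers were negative (median -0.64, 0 called), with a summed 10.7 to 30.2 CPM against 9.81 to 15.0 CPM. Neutrophil markers summed to 6.97 to 9.72 and 5.58 to 7.50 CPM, with 3 of 11 tested. Proximal tubule markers had a median of -0.03 (0 of 12 called), with 15756 to 18638 CPM against 11856 to 19433 CPM. ABT263 animal 16 stood apart, with the lowest proximal tubule sum and 18950 CPM of injured tubule markers, against 1591 to 3540 CPM in the other 7 kidneys. The part of these cells in the member values was not tested.

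The pathway lists held 0 called genes with ABT263. Of the 13 further NADPH oxidase genes 7 were tested, with a median log2 fold change of 0.04. The 2 with the smallest p were Rac1 (-0.13 ± 0.07, edgeR adjusted p = 0.827) and the scaffold Sh3pxd2a (0.21 ± 0.16, adjusted p = 0.863). Rac1 was lower in every ABT263 kidney, at a mean of 175 against 192 CPM. Of all genes tested, 2.25% had ABT263 wholly lower. Cybc1, the chaperone of the membrane pair, could be matched by symbol in this table only. It was at 25.3 ± 2.92 CPM with the control compound and 23.6 ± 1.66 CPM with ABT263 (SD, n = 4 each).

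Activation genes were negative for 15 of 18 (median -0.17), led by the fungal sugar receptor Clec7a (-0.50 ± 0.21, edgeR adjusted p = 0.827) and Syk (-0.33 ± 0.16, adjusted p = 0.829). Of the 6 tested myeloid transcription factors 5 were negative (median -0.28), with Cebpb at -0.57 ± 0.25 (adjusted p = 0.827) and Runx1 at -0.43 ± 0.23 (adjusted p = 0.846). All 13 removal enzymes were negative (median -0.13). The thioredoxin reductase Txnrd1, at -0.41 ± 0.09, had an edgeR adjusted p of 0.536, and the glutathione peroxidase Gpx1, at -0.27 ± 0.09, one of 0.728. Among all genes 49.4% had a positive log2 fold change with ABT263. No removal enzyme was past the threshold in either comparison, and their signs were not tested as a set or between the comparisons.

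Among the 7 tested other enzymes that make reactive oxygen the median was 0.12, and the nitric oxide synthase Nos2 had 0.83 ± 0.41 (edgeR adjusted p = 0.827) and the xanthine oxidase gene Xdh 0.35 ± 0.26 (adjusted p = 0.858). Among the 7 inputs known for Nox4 the median was 0.05, with the angiotensin receptor Agtr1a at 0.30 ± 0.10 (edgeR adjusted p = 0.728) and Tgfb2 at -0.33 ± 0.20 (adjusted p = 0.847). Profiles over these 8 kidneys most like Cybb were those of Klk1b9 (0.08), Atp10d (0.09), Rassf4 (0.09) and Fnbp1 (0.09), against a median of 0.27. Those most like Nox4 were Lmbr1l (0.09), Trmt13 (0.09), Mios (0.10) and Elk4 (0.10), against a median of 0.37.

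Across the settings tried, Cybb, Ncf1, Ncf4 and Rac2 kept a positive and Nox4 a negative log2 fold change in 24 of 24 alternatives for LOY against Control. The looser threshold and the fit that was not robust left every fold change as reported, so no sign could turn in them. Other scalings and filters used the same kidneys, so the alternatives are not independent checks of the sign. The calls did not hold as widely, with 14 of 24 for Cybb, 10 for Ncf1, 6 for Ncf4, 16 for Rac2 and 4 for Nox4. Those of Cybb, Ncf1, Ncf4 and Rac2 include the call at the looser threshold. The plot of fold changes by setting shows signs and calls.

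**Figure D5:**
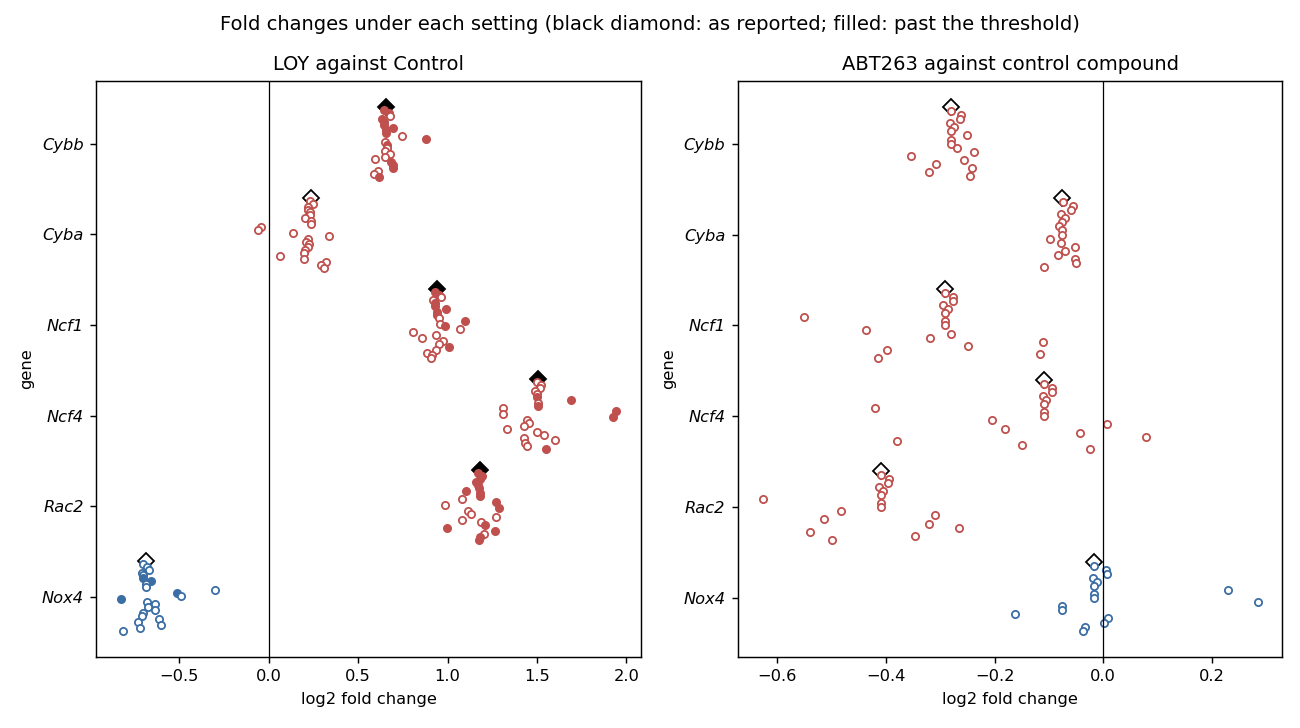
Log2 fold change of each member as reported (black diamond) and under each alternative (small circles, stacked in the order run), for LOY against Control with 24 alternatives and ABT263 against control compound with 17; filled symbols are past the threshold used. In the left panel 5 genes stay on 1 side of 0 and Cyba crosses it; in the right panel none is filled and Nox4 and Ncf4 cross 0.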

How the data were processed

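RNA of 20 whole kidneys was sequenced, 1 library per animal. The authors deposited whole-number read counts per gene in 2 tables, and per the submitters' processing notes the genome build was mm10. The aligner, counter, gene annotation and strandedness were not given in the sources used here. Left out was the entry for reads without a gene (0.223% to 0.401% of counts, first table). Replicates were checked as distinct libraries.

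Each table was tested apart over all genes with the robust quasi-likelihood F test of edgeR 4.0.16 (R 4.3.3), after TMM scaling and filterByExpr (count of 10, total of 15), with p adjusted by Benjamini-Hochberg and called under 0.05. Each SE is the absolute log2 fold change divided by the root of F. DESeq2 1.42.0, voom in limma 3.58.1, other scalings, filters and left-out animals were alternatives. The scripts were tested on simulated data. The labels give each library its own animal and say no more of cages or preparation days.

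Members, gene lists, markers and motifs were chosen with earlier results of these data known. All members are named, and from each list the genes past the threshold or, where none passed, the 2 with the smallest p. For Cybb and Nox4 the 4 most similar profiles are named, unnamed clones passed over. Coordinates and exon lengths are from GENCODE M21; older symbols were matched through RefSeq. A few listed genes are not reported here and were left out of the list counts. Spreads without Control animal 3 or control-compound animal 6 were added after the data were seen.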

Additional observations from a re-analysis of the deposited data

Results flagged for a closer look

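In 24 sets of 4 or 6 kidneys, each for 1 gene in 1 group, 4 had a kidney far from the rest relative to the range of its set. For independent sets with a normal spread, chance gives about 1 in 20. These sets are 6 genes in the same kidneys and not independent, so the count cannot be set against that share. Control animal 3 was the highest Control kidney for Cyba, at 582 CPM against 419 CPM for the next. Control animal 3 was also the highest for Ncf4, at 5.24 CPM against 2.32 CPM. For Nox4 it was the lowest Control kidney, at 178 CPM against 350 CPM for the next. LOY animal 8 was the highest LOY kidney for Rac2, at 31.3 CPM against 19.5 CPM for the next.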

How the results depend on the processing

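For LOY against Control, 4 phagocyte subunits and 176 genes passed as reported. These counts were 1 and 105 with total counts alone, 2 and 130 without a filter, 0 and 0 with animal number above 10 as a term, and 0 and 29 without LOY animals 8 and 10. DESeq2 called 866 genes, voom 1077, an adjusted p of 0.1 gave 549, and the animals numbered above 10 alone gave 451. Leaving out 1 kidney at a time gave 0 to 4 subunits and 0 to 607 genes; the larger count came without Control animal 3 and a count of 0 without Control animal 16 or 17. Nox4 passed at -0.7029 in DESeq2, -0.6582 in voom and -0.5114 among animals numbered above 10, and lay between -0.8264 and -0.6009 with 1 kidney left out. Cyba turned to -0.0414 with the number as a term and to -0.0594 among animals numbered above 10. The phagocyte mean minus Nox4 differed by 1.607 between groups and by 1.6243 with a prior count of 0.5. For ABT263, 0 subunits passed in all alternatives, while DESeq2 called 44 genes, voom 7 and leaving out 1 kidney 0 to 9. Nox4 turned to 0.0049 with upper-quartile factors, 0.0066 with total counts alone and 0.23 in voom, and lay between -0.1626 and 0.2844 with 1 kidney left out; Ncf4 lay between -0.3802 and 0.0794. The causes were not tested. No paired analysis was possible because the groups compared share no animal numbers. Ncf4 had the fewest counts and the largest SE of the members in both comparisons.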

Other observations

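Profiles like those of the remaining members were searched after their values were seen, over the same 12 kidneys of the first table. Cyba had close matches in Grcc10 (0.06), Uqcrh (0.06), Mrps34 (0.06) and Ndufb11 (0.07), nearer than any match of Cybb or Nox4, as root mean square differences of log2 CPM against a median of 0.47 over all genes. The deviation of Cyba minus that of the macrophage markers lay between -1.18 and 0.62 log2 units. The distance between Cyba and Nox4, whose proteins pair, was 0.76, and that between Cyba and Cybb was 0.51. Both were above the median of 0.47 over all genes. A gene with no change over the kidneys would lie at 0.35 from Cyba, the spread of Cyba itself. The spreads of Cybb and Nox4, 0.36 and 0.54, also enter these distances.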
